A study of Mus musculus with 6 samples.

Results

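Constitutive proteasome genes were examined in skeletal muscle of PRR14-knockout mice injected with a gene-delivery virus, AAV (adeno-associated virus), that carried MEF2C-GFP or GFP. The genes were all rows of the deposited gene table whose symbol begins with Psma to Psmg and a number. Psmb8, Psmb9 and Psmb10, which form the immunoproteasome, and symbols containing -ps, the usual mark of a pseudogene, were left out. The rule found 47 of the 22036 listed genes. They comprised 16 genes of the core particle (Psma, the alpha ring, and Psmb, the beta ring) and 20 of the regulatory particle (6 Psmc genes of its ATPase ring and 14 Psmd genes). A further 6 encode activators or an inhibitor (Psme, Psmf1) and 4 encode assembly chaperones (Psmg). The last, Psmc3ip, matches the rule by its symbol but encodes a factor of meiotic recombination and no proteasome subunit.

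The proteasome is the barrel-shaped protease that degrades most proteins tagged with ubiquitin. Alpha subunits gate the barrel, beta subunits carry the proteolytic sites, and the regulatory particle binds, deubiquitinates, unfolds and feeds in the substrate. Its subunits are made together in most cells, under the transcription factor NFE2L1, and in skeletal muscle the ubiquitin-proteasome system is known for breaking down contractile proteins during atrophy.

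Libraries labelled MEF2C (treatment MEF2C-GFP) numbered 3, and libraries labelled GFP also numbered 3. Both groups carried the PRR14 knockout (genotype KO) and were collected 1 month after injection, so that every comparison here is within the knockout. PRR14 is a nuclear protein and MEF2C a muscle transcription factor, and the comparison asks what MEF2C supplied to knockout muscle changes. The sources used here do not give the muscle, the promoter and serotype of the virus, or the age and sex of the mice. Whether replicates came from separate animals is not said in the labels. The p-values thus cover only the spread among these 6 samples, which may be technical. The assay was Nanopore PCR-cDNA sequencing, which reads whole cDNA molecules after amplification. In whole muscle, fewer cells of a type and less RNA per cell cannot be told apart.

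Listed counts ranged from 3814844 to 3838894 in the libraries labelled MEF2C and from 3370833 to 3900617 in the GFP libraries. The label was checked on Mef2c itself, which stood at 234, 196 and 371 normalised CPM (counts brought to a common library size, here the TMM-scaled sum of listed counts) in the libraries labelled MEF2C, against 223, 261 and 236 in the GFP libraries. Here and below the values of a group are given for replicates 1, 2 and 3 in turn. Mef2c lay above every GFP library in replicate 3 only, so directions are stated for the libraries labelled MEF2C. The sources used here do not say whether transcripts of the virus are counted under Mef2c, so these values do not measure delivery. Prr14 had 30, 23 and 20 counts in the libraries labelled MEF2C, against 11, 12 and 15 counts in the GFP libraries, and with no wild-type library here this does not check the knockout. Muscle fibre markers were abundant in every library, with a sum over 8 genes between 106348 and 120200.1 normalised CPM in the libraries labelled MEF2C and between 127197 and 149887 in the GFP libraries. Every MEF2C-labelled sum was thus below every GFP sum. The 3 most abundant of the 8 genes, Acta1, Ckm and Tnnt3, were separate and lower (5.33% of all tested genes), and the groups of the others overlapped. By sign 2 of the 8 log2 changes were positive, Des (0.25) and Mb (0.04), and 6 negative. The part of the lower sum in the proteasome values was not tested.

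No constitutive proteasome gene changed detectably in the libraries labelled MEF2C at this depth and spread. Of the 47 genes, 44 passed edgeR's low-count filter by group, and 0 of these 44 were called at an adjusted p under 0.05, where 7 of all 9229 tested genes (0.0758%) were called. Psmd3, a subunit of the regulatory lid, had the smallest edgeR adjusted p of the members, 0.808. It was also the only member with an unadjusted p under 0.05, which 5.71% of all tested genes had, and in its direction, lower, 2.35%. DESeq2's Wald test called 0 of the 40 members to which it gave an adjusted p, with 0 members at an unadjusted p under 0.05, and it called 29 of 4290 genes (0.676%). With limma-voom 0 of 44 members were called and 1 had an unadjusted p under 0.05.

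The fitted differences were small in both directions. Log2 fold changes (MEF2C over GFP) of the 44 genes ran from -0.52 (Psmd3) to 0.36 (Psme3), with a median of -0.04 beside 0.01 over all tested genes. By sign, 14 were positive and 30 negative with TMM scaling, while 33 were positive and 11 negative when libraries were scaled by listed totals alone, a choice that moved the median of all tested genes to 0.14. All tested genes split into 4814 positive and 4415 negative with TMM and into 6696 and 2533 with listed totals. The sign of the median member thus depends on the scaling. The median was lower than that of all genes under both (-0.04 beside 0.01, and 0.09 beside 0.14). The change of scaling shifts all genes nearly alike, so this agreement is no separate check. With TMM, the 1442 tested genes at 50 to 500 CPM had a median of -0.01 (695 positive, 747 negative). The 32 members at that level had a median of -0.05 (8 positive, 24 negative). The 95% interval of the fold change lay within 2-fold of no change for all 44 genes and within 1.5-fold for 37 of them.

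**Figure D1:**
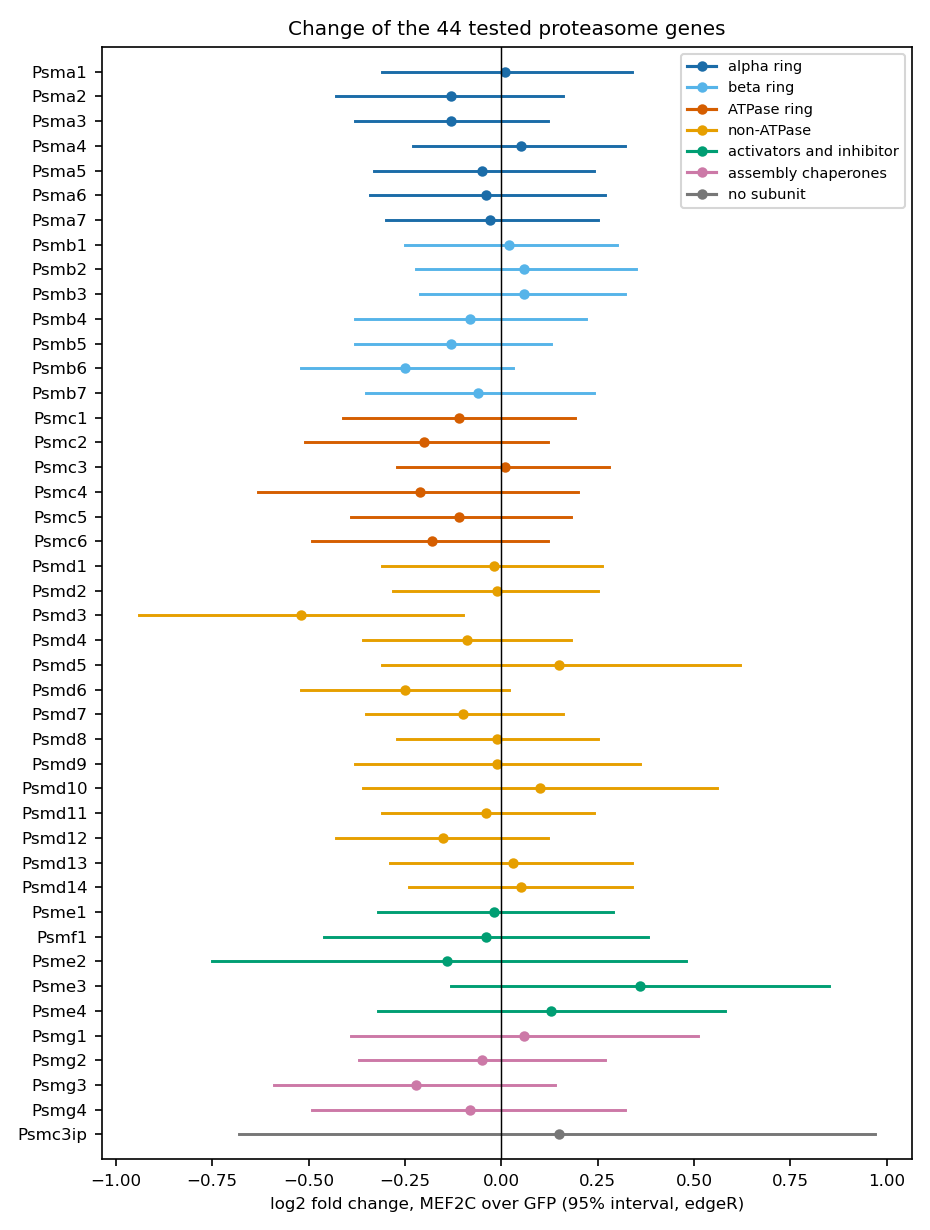
Log2 fold change (MEF2C over GFP, horizontal axis) of the 44 tested proteasome genes, 1 gene per line, coloured by class; points are edgeR estimates and lines their 95% intervals. Estimates lie between -0.52 and 0.36, and only the interval of Psmd3 does not reach 0.

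In 6 of the 44 genes the groups did not overlap. The 3 libraries labelled MEF2C all lay below the GFP libraries for 5 genes, Psmd3, Psmd6, Psmd12, Psmb5 and Psmg3 (5.33% of all tested genes did so), and all above for 1, Psme3 (5.75%). With both directions pooled, 6 of 44 is close to the 11.1% of all tested genes whose groups were separate in either direction. Taken by direction, the 5 lower members are more than the share of all tested genes and the 1 higher is less. With listed totals alone, 2 members were separate and lower, Psmd3 and Psmg3 (1.81% of all tested genes), and 4 were separate and higher, Psme3, Psmb2, Psmb3 and Psmd14 (12.7%), so the balance of directions turns with the scaling. After a correction of each library on transcript length, 5 were lower, Psmd3, Psmd6, Psmg3, Psmb6 and Psmd7 (6.99%), and Psme3 was higher (4.96%). Psmd12, Psmg3, Psmb2, Psmb3, Psmd14 and Psmd7 were chosen for naming here after their values were seen.

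Promoter sequences of 4 members are shown because each holds the antioxidant response element (TGACNNNGC), through which NFE2L1 and its relative NFE2L2 act, or the ETS motif (CCGGAAG), bound by ETS-family factors. Psmb5, Psmd6 and Psmd12 are lower members with separate groups, and Psmb6 is the core subunit with the smallest unadjusted p. Each sequence is 300 bases, from 250 before to 50 after the RefSeq start site, on the gene's own strand 5′ to 3′, in the build GRCm38.p6, and capitals mark matches to either motif on either strand. Psmb5 is chr14:54617946-54618245 (minus strand), Psmb6 is chr11:70525107-70525406 (plus strand), Psmd6 is chr14:14120896-14121195 (minus strand) and Psmd12 is chr11:107479278-107479577 (plus strand).
Psmb5: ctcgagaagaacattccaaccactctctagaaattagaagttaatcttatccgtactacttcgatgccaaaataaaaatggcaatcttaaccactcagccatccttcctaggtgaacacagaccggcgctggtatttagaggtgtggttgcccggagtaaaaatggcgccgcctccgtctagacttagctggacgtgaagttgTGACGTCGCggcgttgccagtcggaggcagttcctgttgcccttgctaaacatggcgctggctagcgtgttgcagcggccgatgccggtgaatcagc
Psmb6: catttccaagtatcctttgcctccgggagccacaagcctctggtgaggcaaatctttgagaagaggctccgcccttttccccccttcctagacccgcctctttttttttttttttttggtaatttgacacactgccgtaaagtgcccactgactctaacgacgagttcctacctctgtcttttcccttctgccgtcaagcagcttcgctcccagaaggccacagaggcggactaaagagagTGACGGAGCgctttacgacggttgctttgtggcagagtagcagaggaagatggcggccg
Psmd6: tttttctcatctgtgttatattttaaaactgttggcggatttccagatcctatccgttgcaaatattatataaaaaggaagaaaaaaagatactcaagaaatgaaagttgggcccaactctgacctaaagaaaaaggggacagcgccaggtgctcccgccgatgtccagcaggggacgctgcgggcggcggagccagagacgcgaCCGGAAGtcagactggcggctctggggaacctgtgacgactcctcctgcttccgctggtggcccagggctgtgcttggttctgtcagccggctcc
Psmd12: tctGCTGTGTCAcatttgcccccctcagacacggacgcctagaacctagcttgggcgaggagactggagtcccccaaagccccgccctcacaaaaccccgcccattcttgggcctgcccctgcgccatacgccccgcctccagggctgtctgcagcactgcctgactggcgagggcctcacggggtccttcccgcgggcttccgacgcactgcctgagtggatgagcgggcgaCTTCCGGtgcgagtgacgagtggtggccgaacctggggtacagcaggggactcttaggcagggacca

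The element begins at base -47 in Psmb5 and at base -9 in Psmb6, counted from the start site. Psmd6 has no such element in this window and has an ETS match at base -45. Psmd12 has the element at base -247 and an ETS match at base -17, both on the opposite strand. RefSeq promoters were found for 39 of the 47 genes; those of Psma8, Psmb1, Psmb2, Psmb7, Psmc3, Psmd3, Psmd7 and Psmg2 were not analysed here. Both strands of every promoter of a gene were searched, and each motif was counted on its own even where matches of different motifs overlap. The antioxidant response element was in 6 of the 39 (15.4%), against 14.0% of 27025 mouse genes with a promoter of the same length. The 6 were Psmb5 and Psmb6 of the core, Psmc6, Psmd9 and Psmd12 of the regulatory particle, and the activator Psme4.

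The ETS motif was in 15 of 39 members (38.5%), Psmc3ip among them, and in 9.9% of all genes. All genes means the 27025 with a promoter, whether or not expressed in this muscle, so they are not matched to the members. By class it was in 9 of 17 regulatory genes and in 1 of 12 core genes, Psma6, whose second RefSeq promoter holds it. The 9 were Psmc1, Psmc2, Psmc6, Psmd2, Psmd4, Psmd6, Psmd11, Psmd12 and Psmd13. GC boxes (GGGCGG) were in 22 members (56.4%, against 38.2% of all genes) and CCAAT boxes (CCAAT) in 14 (35.9%, against 41.1%). E boxes (CANNTG), bound by MyoD-family and other factors, were in 24 (61.5%, against 75.0%). The MEF2 box was in 0 of 39 members and in 3.7% of all genes. These matches describe letters in the window and say nothing of binding in this muscle.

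Genes of the alpha ring, which gates the barrel, stood at like levels in both groups. Psma7, the alpha gene with the highest level per length, stood at 372, 335 and 313 normalised CPM in the libraries labelled MEF2C, against 311, 338 and 390.3 in the GFP libraries. Psma2, the lowest per length of the 7 tested, stood at 337, 338 and 276 normalised CPM in the libraries labelled MEF2C and at 294, 389.6 and 358 in the GFP libraries. The groups overlapped for both genes, with the lowest MEF2C value in replicate 3 each time. Their log2 changes were -0.03 ± 0.13 and -0.13 ± 0.14 (SE; edgeR adjusted p = 0.993 for both), and with listed totals alone that of Psma7 turned to 0.10 and that of Psma2 was 0.00. Psma1, Psma3, Psma4, Psma5 and Psma6 lay between -0.13 and 0.05. The class had 2 positive and 5 negative changes with a median of -0.04 (5 positive and 2 negative with listed totals alone). The counts of Psma2 and Psma4 are uncertain because other listed genes (AW209491 and AY074887) overlap them, and so are those of Psmc3 (Slc39a13), Psmd1 (Gm21972 and Htr2b), Psmd5 (Cutal), Psmd9 (Hpd), Psmd13 (Sirt3), Psme1 (Emc9) and Psmc3ip (Mlx).

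Of the 3 catalytic subunits of the beta ring, Psmb6 had the most negative change of the core and Psmb5 its only separate groups, neither past the test. Psmb5 (ENSMUSG00000022193, chromosome 14, 54614119 to 54618022, minus strand, GRCm38), which carries the chymotrypsin-like site, stood at 248, 285 and 266 normalised CPM in the libraries labelled MEF2C, against 290.4, 294 and 289 in the GFP libraries. Every MEF2C value of Psmb5 was below every GFP value, with a mean of 267 ± 18.5 against 291 ± 2.45 (SD, n = 3 each). The log2 fold change was -0.13 ± 0.12 (SE; edgeR adjusted p = 0.993), and it was 0.00 with listed totals alone.

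Psmb6 (ENSMUSG00000018286, chromosome 11, 70525367 to 70527858, plus strand), which carries the caspase-like site, stood at 459, 425 and 359 normalised CPM in the libraries labelled MEF2C, against 446, 525 and 502 in the GFP libraries. MEF2C replicate 1 lay above GFP replicate 1, so the groups overlapped, and the means were 414 ± 51.1 and 491 ± 41.1 (SD, n = 3 each). Its log2 fold change of -0.25 ± 0.13 had the smallest edgeR adjusted p of the core, 0.928, and the interval reached from -0.52 to 0.03. The change was -0.12 with listed totals alone and -0.15 without MEF2C replicate 3. Psmb7, which carries the trypsin-like site, stood at 222, 207 and 198 normalised CPM in the libraries labelled MEF2C, against 182, 246 and 223 in the GFP libraries. The MEF2C-labelled values lay inside the range of the GFP values, with a log2 change of -0.06 ± 0.14 (edgeR adjusted p = 0.993) that turned to 0.08 with listed totals alone. Nek6 is annotated over Psmb7, whose count is uncertain to that extent.

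Of the non-catalytic beta genes, Psmb4 had the lowest level per length. It stood at 195, 167 and 145 normalised CPM in the libraries labelled MEF2C, against 196, 166 and 172 in the GFP libraries, with overlapping groups and a log2 change of -0.08 ± 0.14 (edgeR adjusted p = 0.993) that was 0.04 with listed totals alone. Psmb1, Psmb2 and Psmb3 had log2 fold changes of 0.02 to 0.06. Over the 7 tested beta genes 3 changes were positive and 4 negative, with a median of -0.06 (6 positive and 1 negative with listed totals alone). For all 14 tested core genes the 95% interval lay within 1.5-fold of no change.

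**Figure D2:**
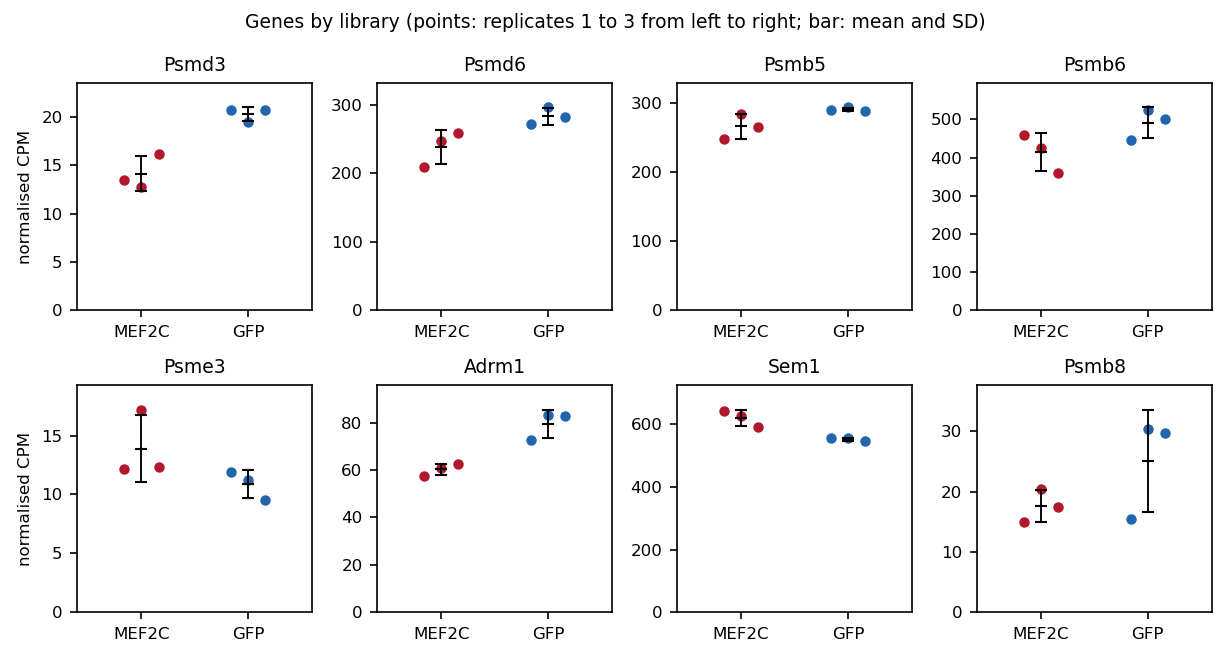
Normalised CPM (vertical axes, each starting at 0) of 5 proteasome genes and of Adrm1, Sem1 and Psmb8 in the libraries labelled MEF2C (left) and GFP (right); points are replicates 1 to 3 from left to right, bars the mean and SD. The groups are separate for Psmd3, Psmd6, Psmb5, Psme3, Adrm1 and Sem1 and overlap for Psmb6 and Psmb8.

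The ATPase ring, whose Psmc subunits unfold the substrate, had 1 positive and 5 negative changes with a median log2 fold change of -0.15 (3 and 3 with listed totals alone, median -0.02). This was the lowest median of the classes, and 0 of its 6 genes had separate groups (11.1% of all tested genes). Psmc2 stood at 174, 153 and 135 normalised CPM in the libraries labelled MEF2C, against 147, 199.7 and 182 in the GFP libraries, a log2 change of -0.20 ± 0.15 (SE; edgeR adjusted p = 0.976). Psmc6, the lowest per length, stood at 146, 133 and 165 normalised CPM in the libraries labelled MEF2C, against 142, 177 and 185 in the GFP libraries, with -0.18 ± 0.14 (edgeR adjusted p = 0.976). With listed totals alone these changes were -0.07 for Psmc2 and -0.05 for Psmc6, and over the omissions of 1 library they ran from -0.33 (without GFP replicate 1) to -0.10 (without GFP replicate 2) for Psmc2 and from -0.31 (without GFP replicate 1) to -0.11 (without MEF2C replicate 2 or GFP replicate 3) for Psmc6. Psmc6 is the ATPase gene in which MEF2C replicate 3 was highest of its group rather than lowest.

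Psmc5, the most abundant ATPase gene per length, stood at 324, 265 and 244 normalised CPM in the libraries labelled MEF2C, against 299.8, 319.7 and 277 in the GFP libraries. The groups overlapped widely, and its log2 fold change of -0.11 ± 0.13 (edgeR adjusted p = 0.993) was 0.02 with listed totals alone. Psmc4 had the largest spread of the ring, at 162, 141 and 93.2 normalised CPM in the libraries labelled MEF2C, against 139, 177 and 144 in the GFP libraries, and is named after its values were seen. Psmc1 and Psmc3 stood at -0.11 and 0.01.

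Among the 14 Psmd genes 4 changes were positive and 10 negative, with a median of -0.02 (11 positive and 3 negative with listed totals alone), and the lowest values belonged to lid subunits, which surround the deubiquitinase Psmd14. Psmd3 (ENSMUSG00000017221, chromosome 11, 98682554 to 98695979, plus strand), a structural subunit of the lid, had 52, 51 and 67 counts in the libraries labelled MEF2C, against 70, 61 and 78 counts in the GFP libraries. On the normalised scale these were 13.5, 12.7 and 16.2 CPM in the libraries labelled MEF2C and 20.7, 19.5 and 20.7 CPM in the GFP libraries, with every MEF2C value below every GFP value. The log2 fold change was -0.52 ± 0.19 (SE; 95% interval -0.94 to -0.10), with an unadjusted p of 0.0177 and an edgeR adjusted p of 0.808. Psmd3 is one of the least abundant subunits here, and its counts were under 80 in each library.

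Psmd6 (ENSMUSG00000021737, chromosome 14, 14112174 to 14120984, minus strand), another lid subunit, stood at 209.6, 247 and 258 normalised CPM in the libraries labelled MEF2C, against 271, 296 and 282 in the GFP libraries. Its groups were separate by a narrow gap, MEF2C replicate 3 lying closest to GFP replicate 1. The log2 fold change was -0.25 ± 0.13 (SE; edgeR adjusted p = 0.913), and -0.11 with listed totals alone. Psmd12, also of the lid, stood at 138, 157 and 166 normalised CPM in the libraries labelled MEF2C, against 178, 167 and 166 in the GFP libraries, with -0.15 ± 0.13 (edgeR adjusted p = 0.982), and its groups nearly touched. The remaining lid genes did not follow: Psmd14, Psmd13, Psmd11, Psmd8 and Psmd7 stood between -0.10 and 0.05 and their groups overlapped.

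The base subunits, ubiquitin receptor and base chaperones among the Psmd genes had overlapping groups. Psmd1 and Psmd2, the large scaffolds of the base, stood at -0.02 ± 0.13 and -0.01 ± 0.12, and Psmd4, a receptor for ubiquitin chains, at -0.09 ± 0.12 (SE; edgeR adjusted p of 0.993 or more for each). Psmd5, Psmd9 and Psmd10 are chaperones that build the base and leave the finished particle. Psmd5 stood at 16.8, 14.2 and 16.5 normalised CPM in the libraries labelled MEF2C, against 11.0, 17.2 and 14.6 in the GFP libraries, and Psmd10 at 32.1, 23.4 and 24.4 in the libraries labelled MEF2C, against 19.9, 21.4 and 32.9 in the GFP libraries. Both overlapped, with log2 changes of 0.15 ± 0.22 and 0.10 ± 0.22 (edgeR adjusted p = 0.993 for both), and both turned negative without GFP replicate 1 (-0.02 and -0.05).

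Activators cap the barrel in place of the regulatory particle, and 1 of them, Psme3, had the highest log2 change of the set over all 6 libraries. Psme3 (ENSMUSG00000078652, chromosome 11, 101316213 to 101323537, plus strand), which encodes the nuclear activator PA28-gamma, had 47, 69 and 51 counts in the libraries labelled MEF2C, against 40, 35 and 36 counts in the GFP libraries. In normalised CPM it stood at 12.2, 17.2 and 12.3 in the libraries labelled MEF2C and at 11.9, 11.2 and 9.54 in the GFP libraries, separate by a small gap between MEF2C replicate 1 and GFP replicate 1. Its log2 fold change was 0.36 ± 0.23 (SE; 95% interval -0.13 to 0.85; edgeR adjusted p = 0.93). Without MEF2C replicate 2 it was 0.18, below Psmd5 (0.22), Psme4 (0.20) and Psmd10 (0.19).

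Psme4, the large nuclear activator PA200, stood at 19.4, 21.4 and 31.0 normalised CPM in the libraries labelled MEF2C, against 24.3, 18.5 and 22.8 in the GFP libraries. The higher mean of the libraries labelled MEF2C rests on replicate 3, since the log2 fold change of 0.13 ± 0.21 (edgeR adjusted p = 0.993) was -0.10 without it. Psme1, a subunit of the interferon-induced activator PA28, stood at 93.0, 89.4 and 76.2 normalised CPM in the libraries labelled MEF2C, against 77.0, 98.3 and 86.1 in the GFP libraries, at -0.02 ± 0.14 (edgeR adjusted p = 0.997; 0.12 with listed totals alone). Its partner Psme2 and the inhibitor Psmf1 stood at -0.14 ± 0.29 and -0.04 ± 0.20.

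Chaperones of core-particle assembly, the Psmg genes, were low and little different. Psmg4 stood at 20.2, 28.1 and 20.8 normalised CPM in the libraries labelled MEF2C, against 22.5, 26.2 and 24.6 in the GFP libraries, and Psmg1 at 15, 14.4 and 11.6 in the libraries labelled MEF2C, against 11.6, 14.0 and 13.8 in the GFP libraries. Both overlapped, at -0.08 ± 0.19 and 0.06 ± 0.21 (SE; edgeR adjusted p = 0.993 for both), and Psmg4 was at 0.05 with listed totals alone. Psmg3 stood at 22.3, 21.2 and 19.8 normalised CPM in the libraries labelled MEF2C, all below the 24.0, 24.9 and 24.9 of the GFP libraries, at -0.22 ± 0.17 (edgeR adjusted p = 0.976). Gm26938 overlaps Psmg3 in the annotation. Psmg2 stood at -0.05 ± 0.15.

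The genes that were not tested are those made in other tissues or copied from another member. Psma8, the alpha subunit of the testis, had 4 counts in MEF2C replicate 1 and 0 in the other 5 libraries. Psmb11, the beta subunit of the thymic cortex, had 0 counts in all 6, where 3 counts, between 0.769 and 0.89 CPM, is the most that a count of 0 allows (counting error only). Psme2b, a near-identical copy of Psme2, had 1 count in GFP replicate 3 and 0 elsewhere, and reads of the pair may be divided either way. Psmc3ip, the meiotic gene, was tested and had 9, 18 and 20 counts in the libraries labelled MEF2C, against 12, 15 and 9 in the GFP libraries (log2 fold change 0.15 ± 0.39, edgeR adjusted p = 0.993).

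Levels per transcript length were compared next, as normalised CPM per kb of the longest coding transcript, averaged over the 6 libraries. The assay reads whole cDNA molecules, so counts need not grow with transcript length, and the order without this division differed. In mean normalised CPM alone, Psma2 stood at 332 and Psma1 at 200.1, Psma7 at 343 and Psma3 at 463. Psmc5 stood at 288 and Psmc3 at 325. Ranks per length here are thus not ranks of transcript number. Core genes spanned a narrow range. Alpha genes lay between 114 (Psma2) and 297 (Psma7), which is 2.61-fold, and beta genes between 147 (Psmb4) and 567 (Psmb6), which is 3.86-fold. ATPase genes lay between 70.8 (Psmc6) and 219 (Psmc5), or 3.09-fold. Psmd genes were far more spread, between 3.42 for the chaperone Psmd5 and 188 for Psmd6, or 55-fold, and Psmd3 lay near the bottom with 8.01. Activators ran from 3.53 (Psme4) to 77.9 (Psme1) and Psmg genes from 12.8 (Psmg1) to 42.8 (Psmg4). The longest transcript need not be the one used in muscle, so long annotated transcripts, such as the 2911 bases of Psma2 and the 4397 bases of Psmd5, lower these levels.

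**Figure D3:**
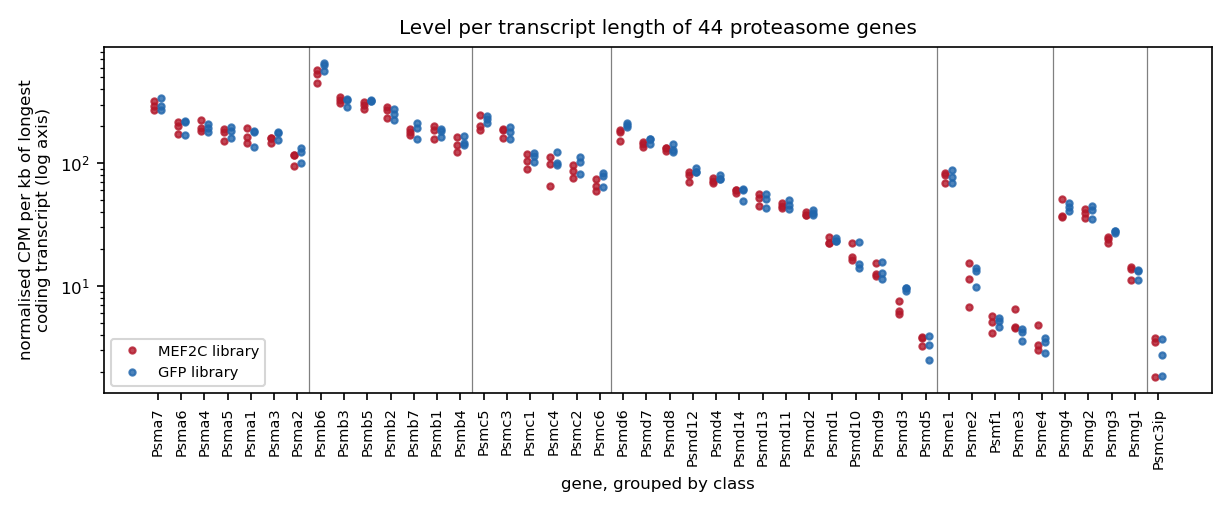
Normalised CPM per kb of the longest coding transcript (log axis) of the 44 tested genes, grouped by class and ordered by mean level; red points are libraries labelled MEF2C and blue points GFP libraries. Core and ATPase genes lie between 70.8 and 567 on average, while Psmd genes reach down to 3.42.

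No difference in the proportion of core to regulatory genes was seen between the groups beyond the spread of replicates. Summed counts of core genes exceeded those of regulatory genes 1.44, 1.39 and 1.28 times in the libraries labelled MEF2C and 1.30, 1.33 and 1.4 times in the GFP libraries. On the log2 scale the ratio averaged 0.45 ± 0.09 in the libraries labelled MEF2C and 0.42 ± 0.06 in the GFP libraries (SD, n = 3 each). The difference of 0.03 was smaller than either SD, and the groups overlapped. It lay between -0.01 and 0.08 when each library was left out in turn, and between 0.03 and 0.05 with means of log2 CPM, without the most abundant gene of each class, without the base chaperones or per kb of transcript. Median log2 fold changes were -0.04 over the 14 core genes (5 positive, 9 negative) and -0.06 over the 20 regulatory genes (5 positive, 15 negative), and they were 0.09 and 0.07 with listed totals alone. The core median was 0.04 without MEF2C replicate 3 and 0.02 without GFP replicate 3.

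Within the core the 2 rings kept step. The log2 ratio of alpha to beta counts was 0.07, 0.04 and 0.04 in the libraries labelled MEF2C, against -0.03, 0.03 and 0.10 in the GFP libraries. Core counts relative to the ATPase ring were also narrow, at 1.63, 1.71 and 1.69 in the libraries labelled MEF2C, against 1.64, 1.56 and 1.70 in the GFP libraries (log2). Relative to the Psmd genes the core varied more between replicates than between groups, at 1.44, 1.27 and 1.07 in the libraries labelled MEF2C, against 1.16, 1.28 and 1.30 in the GFP libraries (log2). Replicates 1 and 3 of the MEF2C label were the highest and the lowest of the 6 libraries in that ratio.

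**Figure D4:**
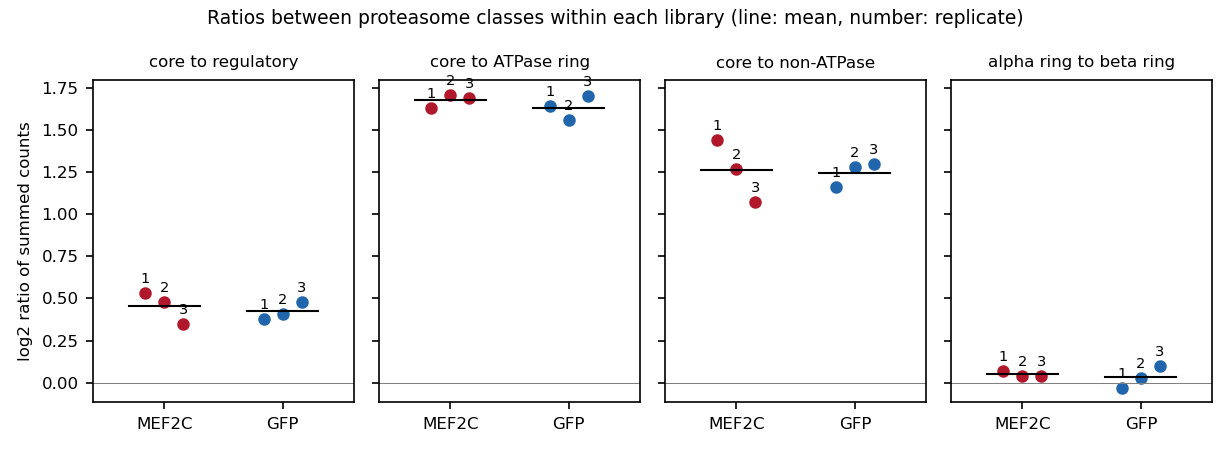
Log2 ratio of summed counts between proteasome classes within each library (vertical axis), for libraries labelled MEF2C (left) and GFP (right); points are libraries with their replicate number, lines the group means. The groups overlap in all 4 ratios, and the widest spread is that of core to non-ATPase (Psmd) counts in the libraries labelled MEF2C, between 1.07 and 1.44.

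As a share of all listed counts the 47 genes took 0.735%, 0.736% and 0.697% in the libraries labelled MEF2C, against 0.674%, 0.691% and 0.723% in the GFP libraries. The means were 0.723% ± 0.0221 and 0.696% ± 0.0249 (SD, n = 3 each). The difference was about 1 SD and the groups overlapped, and over TMM-scaled library sizes it turned to -0.037 percentage points. Core genes took between 0.376% and 0.418% in the libraries labelled MEF2C, against 0.367% to 0.407% in GFP libraries. Regulatory genes took between 0.290% and 0.296% in the libraries labelled MEF2C, against 0.283% to 0.291% in GFP libraries.

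Core and ATPase genes were low together in single libraries. Within its group, MEF2C replicate 3 was lowest for 13 of the 14 tested core genes (92.9%) and for 5 of the 6 ATPase genes (83.3%), but for only 1 of the 14 Psmd genes. Replicate 1 was the highest of the MEF2C label for 12 core genes and 5 ATPase genes. GFP replicate 1 was the lowest of its group for 11 core, 5 ATPase and 9 Psmd genes. The median group difference of the core genes was -0.04 with TMM and 0.09 with listed totals alone. It compares means of 3 libraries, so it is not a like measure to the deviations of single libraries given next. MEF2C replicate 3 lay 0.18 (log2) below its group's mean in the median core gene, and GFP replicate 1 lay 0.14 below its own.

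Part of the order of the core genes was also seen in other genes of like level with short transcripts. Among the 392 tested genes at 50 to 500 CPM with a longest transcript under 1500 bases, MEF2C replicate 3 was the lowest of its group for 68.9% and GFP replicate 1 for 65.3%. Over all 9229 tested genes the shares were 36.0% and 35.6%. For 852 genes of the same level with a longest transcript of 1500 to 4500 bases, MEF2C replicate 3 was the lowest for 53.6%. It was the lowest for 83.3% of the 6 ATPase genes. Among the 10 Psmd genes at that level it was the lowest for 10% and the highest for 60.0%. Median longest transcripts were 1220 bases for core and 1986 bases for regulatory genes, and 1851 bases for the ATPase genes among the latter. Core transcripts ran from 859 to 2911 bases, so some core genes lie outside the set under 1500 bases. After a correction of each library on transcript length, MEF2C replicate 3 was still the lowest for 12 core genes and for 1 Psmd gene. With listed totals alone the counts were 13 and 1.

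**Figure D5:**
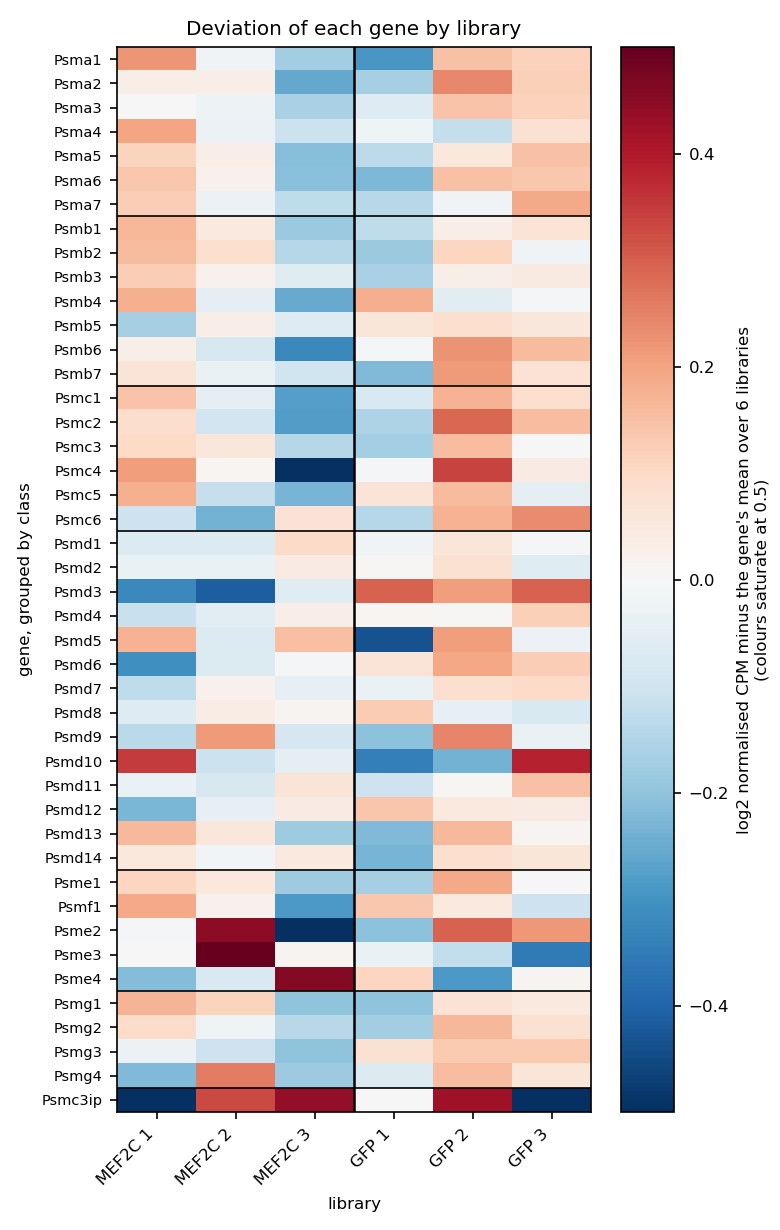
Log2 normalised CPM of each of the 44 tested genes minus the gene's mean over the 6 libraries (colour, saturating at 0.5), with genes as rows grouped by class and libraries as columns. Core and ATPase rows are mostly blue, that is low, in MEF2C replicate 3 and GFP replicate 1, while most Psmd rows are not blue in MEF2C replicate 3.

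Markers of other cell types also differed between single libraries. The sum over 9 neutrophil genes was 1223, 6.23 and 3.15 normalised CPM in the libraries labelled MEF2C, against 3.56, 2.87 and 76.9 in the GFP libraries. The sum over 5 erythroid genes was 8631, 4393 and 4854 in the libraries labelled MEF2C, against 3723, 3080.5 and 4166 in the GFP libraries, with 4 of the 5 genes higher without overlap (5.75% of all tested genes). MEF2C replicate 1, the library richest in both, was also the one with the highest core counts of its group. The GFP group did not follow this. There replicate 2 had the lowest sum of both lists and the highest core sum. Core sums in the GFP libraries were 3661, 4205 and 4202 normalised CPM, and in the libraries labelled MEF2C 4162, 3913 and 3472. Sums of 7 macrophage genes lay between 129.5 and 199 in the libraries labelled MEF2C and between 141 and 222 in the GFP libraries. Endothelial, fibroblast and Schwann cell genes had overlapping sums, 7 lymphocyte genes summed to 11.1 or less in any library, and adipocyte genes to between 825 and 1656 in the libraries labelled MEF2C and between 727 and 987 in the GFP libraries. No marker was at 0 in every library. Their part in the proteasome values was not tested.

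The rest of the ubiquitin-proteasome pathway was likewise without a call. Of 63 listed pathway genes 60 were tested and edgeR called 0 of them, with 1 higher and 6 lower at an unadjusted p under 0.05 (3.36% and 2.35% of all tested genes). By sign 22 were positive and 38 negative, with a median of -0.07, against 38 positive, 22 negative and a median of 0.06 with listed totals alone. Of the pathway genes named below, Ddi2, Nfe2l2, Ubb and Rps27a changed sign between the scalings and the others kept it. Adrm1, the ubiquitin receptor of the base that the symbol rule leaves out, stood at 57.5, 60.8 and 62.4 normalised CPM in the libraries labelled MEF2C, against 72.6, 83.0 and 82.9 in the GFP libraries. All 3 MEF2C values were below the GFP values, at -0.40 ± 0.13 (SE; unadjusted p = 0.00982; edgeR adjusted p = 0.749). Sem1, the smallest lid subunit, went the other way, at 643, 627 and 591 normalised CPM in the libraries labelled MEF2C, against 556, 555 and 546 in the GFP libraries. Its groups were also separate, at 0.17 ± 0.11 (edgeR adjusted p = 0.944). In this list of 8 tested genes 1 was thus separate and higher and 1 separate and lower. Of all tested genes 5.75% were separate and higher and 5.33% separate and lower.

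Immunoproteasome genes replace the catalytic beta subunits in cells exposed to interferon. Psmb8 stood at 15, 20.4 and 17.4 normalised CPM in the libraries labelled MEF2C, against 15.4, 30.3 and 29.7 in the GFP libraries, at -0.51 ± 0.25 (SE; edgeR adjusted p = 0.9). GFP replicate 1 was as low as the libraries labelled MEF2C, so the groups overlapped. Psmb9 and Psmb10 stood at -0.49 ± 0.37 and -0.16 ± 0.18 (edgeR adjusted p = 0.976 and 0.993). The 3 genes together summed to 60.9, 57.0 and 53.2 normalised CPM in the libraries labelled MEF2C and 47.1, 86.5 and 85.9 in the GFP libraries. Of the class I presentation genes that use the peptides, H2-K1 stood at 36.3, 59.3 and 52.0 normalised CPM in the libraries labelled MEF2C, against 55.7, 87.7 and 80.8 in the GFP libraries (-0.60 ± 0.21, edgeR adjusted p = 0.773), and all 6 tested members were negative (5 of 6 with listed totals alone).

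Genes that set proteasome synthesis and maturation overlapped between groups in most cases. Nfe2l1, the transcription factor of the bounce-back response to proteasome inhibition, stood at 81.9, 103 and 115 normalised CPM in the libraries labelled MEF2C, against 128, 88.1 and 79.8 in the GFP libraries, at 0.02 ± 0.19 (SE; edgeR adjusted p = 0.997). Keap1, which targets NFE2L2 for degradation, stood at 28.2, 41.1 and 38.0 normalised CPM in the libraries labelled MEF2C, all below the 54.5, 46.3 and 45.1 of the GFP libraries, at -0.44 ± 0.17 (edgeR adjusted p = 0.808). It was the only 1 of the 7 tested genes of its list with separate groups, where 5.33% of all tested genes were separate and lower. Pomp, the maturation factor of the core particle, stood at 226, 236 and 207 normalised CPM in the libraries labelled MEF2C, against 189, 218 and 201 in the GFP libraries, at 0.14 ± 0.12 (edgeR adjusted p = 0.989). Ngly1, Ddi2 and Nfe2l2, which activate or resemble NFE2L1, stood between -0.10 and 0.04.

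Upstream of the proteasome, values were mixed. Sqstm1, the receptor that carries ubiquitinated cargo to autophagy, stood at 173, 158 and 184 normalised CPM in the libraries labelled MEF2C, against 247, 206 and 211 in the GFP libraries (-0.37 ± 0.13, edgeR adjusted p = 0.757). Ubqln4, a shuttle that brings ubiquitinated proteins to the proteasome, stood at 20.5, 15.7 and 23.7 normalised CPM in the libraries labelled MEF2C, against 14.2, 15 and 12.2 in the GFP libraries (0.53 ± 0.21, edgeR adjusted p = 0.808). Both had separate groups, in opposite directions. Vcp, the p97 segregase that extracts proteins for degradation, was also lower without overlap, at -0.24 ± 0.13 (edgeR adjusted p = 0.927). Of the 17 tested shuttle and segregase genes 1 was separate and higher and 2 were separate and lower (5.75% and 5.33% of all tested genes). Ubb and Rps27a, which encode ubiquitin, had overlapping groups, with log2 changes of -0.02 and -0.07.

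Among 11 muscle ubiquitin ligases and conjugating enzymes, the microtubule-associated RING proteins Trim55 and Trim54 had the smallest p. Trim55 stood at 18.7, 30.6 and 23.2 normalised CPM in the libraries labelled MEF2C, against 38.8, 42.4 and 39.5 in the GFP libraries, at -0.73 ± 0.19 (SE; edgeR adjusted p = 0.399). Trim54 stood at 75.4, 83.7 and 109 normalised CPM in the libraries labelled MEF2C, against 139, 136 and 118 in the GFP libraries, at -0.55 ± 0.16 (edgeR adjusted p = 0.526). Neither passed the test, although the groups were separate for both. Of the 11 genes 2 were separate and lower and 0 separate and higher (5.33% and 5.75% of all tested genes). Fbxo32 and Trim63, the ligases best known from atrophy, varied widely between libraries, at 0.83 ± 0.65 and 0.49 ± 0.41 (edgeR adjusted p = 0.989 and 0.993).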

How the data were processed

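Counts per gene from 6 Nanopore PCR-cDNA libraries (1 µg of total RNA, 14 PCR cycles, per the labels' protocols) were used as the authors deposited them. Per the file headers each library also has a CPM column, and the deposited CPM were used only to recover the total behind them, of which the listed genes held 95.6% to 96.4%. In the submitters' processing notes minimap2, GRCm38 and DESeq2 1.6.3 appear without roles, and the sources used here name no counting tool, annotation or use of strand. Without strand, overlapping genes cannot be told apart. The protocol names no molecular identifiers, so intervals and floors cover counting error only. Rows naming no gene (30, with 0 counts) were left out.

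Genes were tested with edgeR 4.0.16 (R 4.3.3; robust quasi-likelihood, low-count filter by group, TMM) over all 6 libraries without covariates, with Benjamini-Hochberg adjustment over 9229 genes and a threshold of 0.05. SEs come from the F statistic. Alternatives were DESeq2 1.42.0 (test and size factors), limma-voom (limma 3.58.1), listed totals without TMM, no filter, a strict filter (1 CPM in 3 libraries and a mean of 20 counts), non-robust dispersion, a replicate block, loess on transcript length (span 0.3, prior count 2) and leaving out each library. The fit was tested on simulated counts.

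Replicate libraries differed beyond sampling noise (chi-square per degree of freedom 4.95 to 10.3). Coordinates and transcript lengths are from GENCODE vM21 (GRCm38), which held all 47 genes. The members and gene lists were chosen with earlier results of these data known. Named with values are the catalytic subunits, the 4 members per direction with the smallest p, the highest and lowest gene per length of each class, and up to 3 genes of each pathway list, apart from those said to be chosen after their values were seen. The replicate-order counts and the counts of separate groups under other scalings were added after seeing the data. Of the pathway lists, some genes that the rule allows are not described.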

Additional observations from a re-analysis of the deposited data

How the results depend on the processing

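The count of 0 called members held in every alternative run, with a smallest edgeR adjusted p among the named members of 0.519 (without MEF2C replicate 3). Over all genes the 7 calls became 35 with no filter, 3 with the strict filter, 29 with DESeq2, 3 with limma-voom, 2 with the replicate block and 0 with non-robust dispersion (557 genes at an unadjusted p under 0.05). Leaving out 1 library gave 0 (without GFP replicate 3, 386 at an unadjusted p under 0.05) to 22 (without MEF2C replicate 3). Whether replicate numbers pair the samples is not said in the labels. Deviations from group means correlated at -0.235, 0.048 and -0.251 between same-numbered libraries and at -0.124 to 0.32 between the others. With 3 libraries per group these values depend on each other and do not decide it. The replicate block called 0 members, as did the fit without it.

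With listed totals alone the medians were 0.09 (all members), 0.09 (core) and 0.07 (regulatory), where the median of all genes was 0.14. The regulatory median ran from -0.12 (without GFP replicate 1) to -0.03 when single libraries were left out, the core median from -0.13 to 0.04 and that of all members from -0.12 to -0.01. The difference in share became -0.037 percentage points over TMM-scaled sizes. Of 270 values for 18 named members, 251 kept their sign and side of the threshold and 19 changed sign. With listed totals these were Psma7 (0.10), Psmb4 (0.04), Psmb5 (0.00), Psmb7 (0.08), Psmc5 (0.02), Psme1 (0.12) and Psmg4 (0.05). Leaving out 1 library turned Psmd10 and Psmg1 (MEF2C replicate 1), Psma7, Psmb4, Psme1 and Psme4 (MEF2C replicate 3), Psmd10, Psmd5 and Psmg1 (GFP replicate 1), Psmb7 and Psme1 (GFP replicate 2) and Psma7 (GFP replicate 3). The ranges over the 6 omissions were -0.11 to 0.07 for Psma7, -0.20 to 0.02 for Psmb4, -0.18 to 0.04 for Psmb7, -0.06 to 0.37 for Psmd10, -0.02 to 0.30 for Psmd5, -0.11 to 0.08 for Psme1, -0.10 to 0.25 for Psme4 and -0.04 to 0.16 for Psmg1. The totals differ from TMM sizes by the shift of all genes; for the other settings the cause was not tested. Depth limits genes such as Psmd3 and Psme3, which had under 80 counts per library.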
